A study of Mus musculus with 27 samples.

Results

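The comparison described here sets mature 3T3-L1 adipocytes kept for 48 h with rosiglitazone against untreated adipocytes of the same line, over all 18781 genes measured. Its members were chosen by their labels: the 3 arrays of the 48 h rosiglitazone group and the 3 arrays of the untreated group at time 0, which is 6 of the 27 arrays of a time course with 8 rosiglitazone times. 3T3-L1 is an established mouse preadipocyte line. Cells of all groups had been turned into adipocytes with dexamethasone, insulin and 3-isobutyl-1-methylxanthine, then insulin, then plain growth medium. The treated cells received 1 µM rosiglitazone dissolved in DMSO. No treatment is given for the untreated cells. The study's design text speaks of cells given DMSO, but none of the samples used here is labelled so, and whether the untreated cells had DMSO is not given. The untreated cells were harvested at time 0, so 48 h more in culture, any effect of DMSO and the drug cannot be told apart.

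Rosiglitazone is an insulin-sensitising drug that binds and activates PPARγ, a nuclear receptor that pairs with a retinoid X receptor on DNA and drives the genes of fat cell formation, fatty acid storage and lipid droplet growth. Its close relative PPARα drives fatty acid burning in liver, and in white fat cells prolonged PPARγ activation is known to add features of brown fat, the tissue that burns fatty acids in mitochondria to make heat. PPARγ is also known to restrain many inflammatory genes.

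The RNA was hybridised to Affymetrix Mouse Gene 1.1 ST arrays. A level below is a log2 intensity, on a scale where all values ran from 1.67 to 13.19. A change is the mean level of the rosiglitazone 48 h arrays minus that of the untreated arrays (n = 3 each). A change of 1 stands for a doubling. Each change is given with a standard error from limma's model, whose estimate of the spread is shared by all groups of the time course. That standard error does not come from the 6 arrays compared alone, and can be smaller or larger than their own spread would give. Genes are said to rise or fall where limma's adjusted p, over all 18781 genes, was below 0.05. Nothing in the labels tells separate cultures from repeat samples of 1 culture, so the p-values measure the spread between arrays alone, and that spread may be technical. Precision is limited by there being 3 arrays a group. The median standard error of a change was 0.0877. Where the levels of all 6 arrays are printed for a gene, the groups did not overlap, with Cox7a2 and Ucp1 as the exceptions. In these bulk samples, fewer cells of a type and less RNA per cell cannot be told apart. Arrays of 1 group correlated at 0.9967 to 0.9984 and arrays of different groups at 0.9918 to 0.9930 over all genes.

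The response at 48 h was broad and mostly small. Of the 18781 genes, 4515 were called, a share of 24.0%, of which 2372 rose (12.6%) and 2143 fell (11.4%). Counts of list members below are to be read against these shares. The median change was 0.34 among genes that rose and -0.39 among genes that fell. Changes of at least 1 on the log2 scale were made by 62 genes that rose and 124 that fell, and changes of at least 2 by 7 and 5 genes. Genes that rose made up 52.5% of those called as deposited and 50.9% after a further quantile normalization, against 65.9% after centring each array on its median. The median change of all genes was 0.013, with quartiles of -0.11 and 0.13. With genes split into 4 equal groups by mean level, 3.94% were called in the lowest group and 39.8% in the highest, so the counts below come mainly from well expressed genes. The arrays of the 2 groups did not overlap in 6766 genes, or 36.0%.

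**Figure D1:**
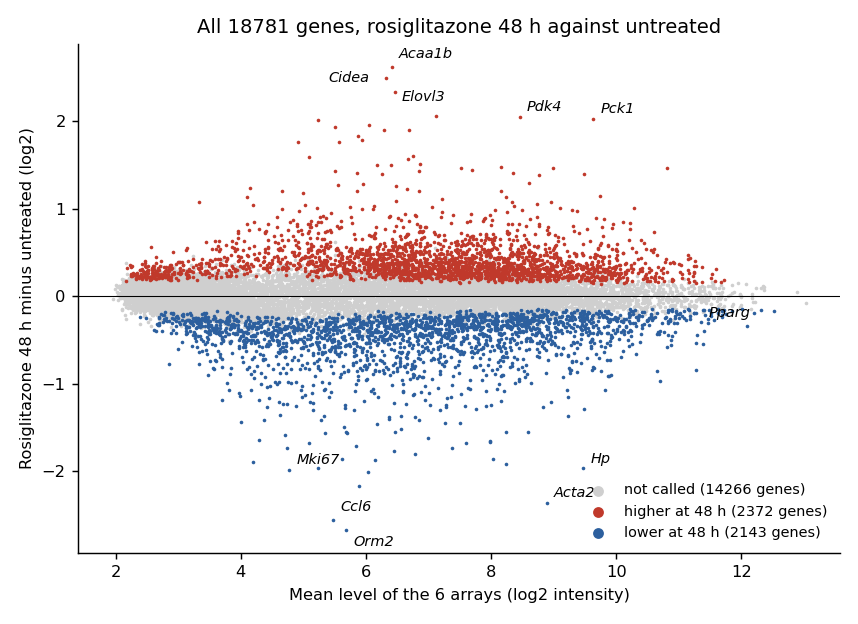
Each point is 1 of 18781 genes, with its mean level over the 6 arrays (log2 intensity) on the horizontal axis and its change, rosiglitazone 48 h minus untreated (log2), on the vertical axis. Red points are the 2372 genes that rose, blue points the 2143 that fell and grey points those not called. Acaa1b (2.62) is the highest point and Orm2 (-2.67) the lowest.

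The 3 largest increases were those of Acaa1b, Cidea and Elovl3. Acaa1b, a peroxisomal thiolase that carries out the last step of fatty acid oxidation in that organelle, had levels of 8.11, 7.91 and 7.14 at 48 h, against 5.11, 4.98 and 5.21 in untreated cells. It rose by 2.62 ± 0.20, which is 6.14-fold (adjusted p = 3.7e-10). Cross-reading with its close copy Acaa1a cannot be told from these probes, and Acaa1a rose by 0.54 ± 0.072 (adjusted p = 2.35e-06). Cidea, which fuses and enlarges lipid droplets in brown fat, had levels of 7.71, 7.52 and 7.43 at 48 h, against 4.98, 4.96 and 5.26 in untreated cells. Its increase of 2.49 ± 0.12 (adjusted p = 2.55e-13) had a 95% interval of 2.23 to 2.74. Elovl3, a fatty acid elongase typical of brown fat, had levels of 8.34, 7.58 and 6.93 at 48 h, against 5.02, 5.07 and 5.77 in untreated cells. Its 48 h arrays were spread widely, with an SD of 0.702, but all of them lay above all untreated arrays (2.33 ± 0.24, adjusted p = 4.88e-08).

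Pdk4 and Pck1 were also among the largest increases. Pdk4, a kinase that switches off pyruvate dehydrogenase, had levels of 9.67, 9.37 and 9.38 at 48 h, against 7.27, 7.45 and 7.56 in untreated cells (change 2.05 ± 0.11, adjusted p = 4.89e-13). Pck1 makes phosphoenolpyruvate, which fat cells use to build the glycerol backbone of triglyceride. It had levels of 10.91, 10.58 and 10.44 at 48 h, against 8.43, 8.78 and 8.64 in untreated cells (change 2.03 ± 0.11, adjusted p = 2.26e-12). The mitochondrial intermembrane protein Chchd10 also rose by 2.05 ± 0.13 (adjusted p = 1.21e-11).

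The other genes among the 15 largest increases rose by 1.76 to 2.02. They were the scavenger receptor Olr1, the carbonic anhydrases Car6 and Car9, which interconvert carbon dioxide and bicarbonate, Depp1, Arxes1, the ceramidase Acer2, the G protein regulator Rgs17, Tmem45b and 4631405J19Rik. Arxes1 rose by 1.90 and its neighbour in sequence Arxes2 by 1.20, and probes of each may read the other. All 15 were picked for arrays that did not overlap between the groups.

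**Figure D2:**
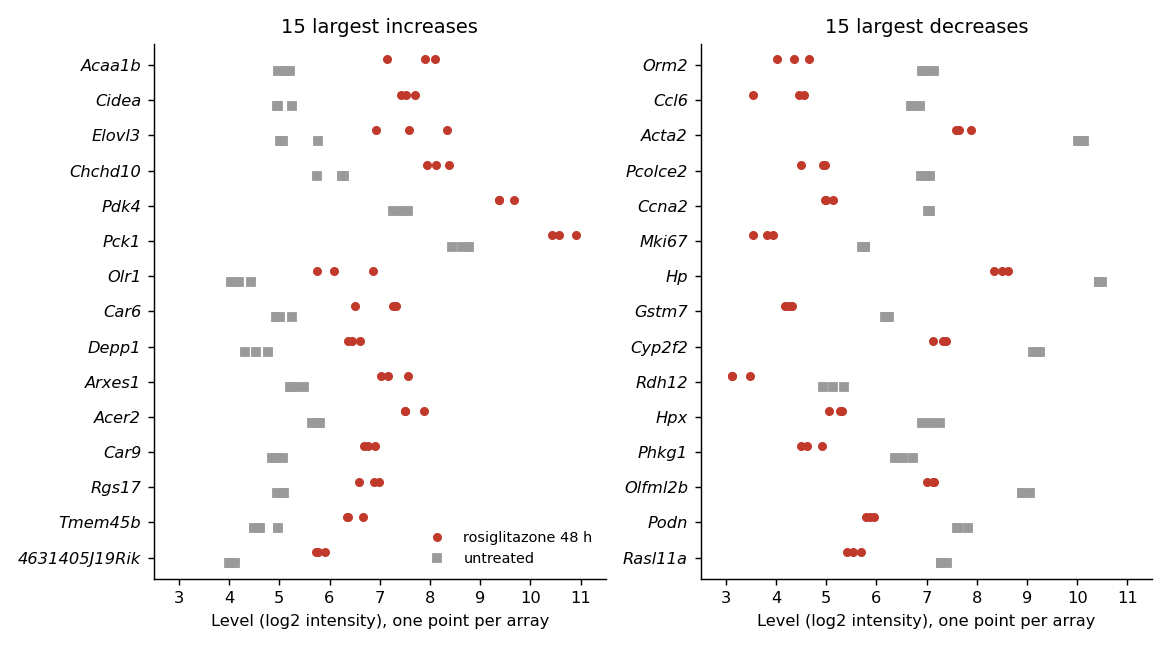
Levels (log2 intensity) of the 15 genes with the largest increases (left) and the 15 with the largest decreases (right), 1 point per array. Red circles are the 3 rosiglitazone 48 h arrays and grey squares the 3 untreated arrays. The groups do not overlap in any of these genes, which was a condition of choosing them, and Elovl3 and Olr1 show the widest spread among the 48 h arrays of the left panel.

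The arrays carried the identity of fat cells in both groups. The mean level of 15 adipocyte markers was 11.18 to 11.29 in the 48 h arrays and 11.14 to 11.19 in the untreated arrays, near the top of the scale. Of these markers 3 rose and 2 fell, against 12.6% and 11.4% of all genes. Aqp7, the channel that lets glycerol out of fat cells, rose by 0.61 ± 0.074 (adjusted p = 7.22e-07). Adig, a small adipocyte membrane protein, rose by 0.54 ± 0.064 (adjusted p = 5.2e-07), and the fatty acid transporter Cd36 by 0.43 ± 0.081 (adjusted p = 0.000256). Pparg had levels of 11.26, 11.19 and 11.18 at 48 h, against 11.49, 11.52 and 11.51 in untreated cells. The receptor of the drug was thus lower in every treated array, by a small amount (-0.30 ± 0.049, adjusted p = 5.55e-05). Retn, the hormone resistin, changed by -0.20 ± 0.056 (adjusted p = 0.00979), and its call ended without the 48 h replicate 3 (-0.15, adjusted p = 0.0802), which left 1 marker that fell. Adipoq, Plin1, Cidec, Lipe, Slc2a4, Gpd1 and Cebpa, which encode adiponectin, the main droplet coat proteins, hormone-sensitive lipase, the insulin-responsive glucose transporter, a glycerol phosphate enzyme and an adipocyte transcription factor, had changes of -0.09 to 0.06 and were not called. Fabp4, which binds fatty acids, and the lipase Lpl had larger changes, 0.165 and -0.146, and were not called either. Both were called under limma's trended and robust variance (adjusted p = 0.0131 and 0.00858).

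Other receptors of the family moved in different directions. Ppara had levels of 6.06, 5.50 and 5.60 at 48 h, against 4.69, 4.70 and 4.75 in untreated cells, and rose by 1.01 ± 0.16 (adjusted p = 2.13e-05). Ppard, the third member, was lower (-0.40 ± 0.073, adjusted p = 0.00015), and so was the PPAR partner Rxra (-0.40 ± 0.077, adjusted p = 0.000344). Of 18 receptors and coregulators 6 rose and 5 fell (33.3% and 27.8%, against 12.6% and 11.4% of all genes). Coactivators of mitochondrial genes were among those that rose: Ppargc1a had levels of 8.09, 7.77 and 7.71 at 48 h, against 6.94, 6.82 and 7.02 in untreated cells (change 0.93 ± 0.14, adjusted p = 9.21e-06), and Ppargc1b rose by 0.70 ± 0.085 (adjusted p = 6.43e-07). Tle3, a transducin-like cofactor that works with PPARγ in white fat cells, rose by 0.53 ± 0.059 (adjusted p = 1.57e-07). Nrip1, a corepressor of oxidative genes in fat, changed by -0.44 ± 0.084 (adjusted p = 0.000284).

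Genes of fat storage were shifted at some steps and not at others. Of 17 genes of glyceroneogenesis and triglyceride synthesis 8 rose and 1 fell, with a median change of 0.165, against 0.013 for all genes. Pck1 stood far above the rest. The phosphatidate phosphatases Lpin2 and Lpin1 rose by 0.48 ± 0.069 (adjusted p = 7.53e-06) and 0.33 ± 0.059 (adjusted p = 0.000165), and the acyltransferase Agpat3 by 0.44 ± 0.078 (adjusted p = 0.000125). The member that fell was Dgat2, one of the enzymes that add the last fatty acid, with levels of 11.05, 10.98 and 10.97 at 48 h, against 11.49, 11.53 and 11.58 in untreated cells (change -0.54 ± 0.062, adjusted p = 3.83e-07).

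Among 16 lipid droplet proteins 6 rose and 2 fell (37.5% and 12.5%, against 12.6% and 11.4% of all genes). The fall count was 1 without the 48 h replicate 3 and 1 without the untreated replicate 1. Hilpda, which inhibits the main triglyceride lipase, had levels of 7.57, 7.59 and 7.50 at 48 h, against 6.02, 6.11 and 6.25 in untreated cells (change 1.43 ± 0.093, adjusted p = 2.37e-11). The coat protein Plin4 rose by 0.47 ± 0.063 (adjusted p = 2.72e-06), while Cav1, the caveolin of the fat cell surface, changed by -0.40 ± 0.060 (adjusted p = 1.28e-05). Of 14 lipolysis genes 4 rose and 2 fell (28.6% and 14.3%, against the same shares of all genes). The carboxylesterases Ces1f and Ces1d, which release fatty acids from stored fat, rose by 0.82 ± 0.067 (adjusted p = 1.09e-09) and 0.59 ± 0.072 (adjusted p = 7.92e-07), though probes of this family may read each other. Hcar2, a receptor that restrains lipolysis, rose by 0.75 ± 0.075 (adjusted p = 3.66e-08), and Pnpla3, a lipase of the droplet surface, changed by -0.52 ± 0.075 (adjusted p = 8.38e-06). Angptl4, which is secreted and blocks lipoprotein lipase, rose by 0.79 ± 0.073 (adjusted p = 1.03e-08). The ligase Acsl5, which activates fatty acids, changed by -0.80 ± 0.088 (adjusted p = 1.64e-07).

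Genes of fatty acid burning rose together. Of 20 genes of mitochondrial fatty acid oxidation 15 rose and 1 fell, with a median change of 0.33. The carnitine carrier Slc25a20, which brings fatty acids into the mitochondrion, had levels of 8.66, 8.16 and 8.42 at 48 h, against 7.42, 7.60 and 7.77 in untreated cells (change 0.81 ± 0.11, adjusted p = 2.8e-06). Hadhb, the beta subunit of the trifunctional protein, had levels of 10.78, 10.57 and 10.47 at 48 h, against 9.89, 9.82 and 9.79 in untreated cells (change 0.77 ± 0.073, adjusted p = 1.44e-08). Its partner Hadha rose by 0.44 ± 0.065 (adjusted p = 1.11e-05), the carnitine importer Slc22a5 by 0.58 ± 0.079 (adjusted p = 3.67e-06), the thiolase Acaa2 by 0.54 ± 0.067 (adjusted p = 8.97e-07) and the isomerase Eci2 by 0.50 ± 0.060 (adjusted p = 5.65e-07). The member that fell was Cpt1a, the liver-type gate enzyme of the pathway (-0.38 ± 0.13, adjusted p = 0.0279). Its 48 h arrays overlapped the untreated ones, and its call ended without the 48 h replicate 2 (-0.27, adjusted p = 0.172), the 48 h replicate 3 (-0.32, adjusted p = 0.113), the untreated replicate 2 (-0.36, adjusted p = 0.0877) or the untreated replicate 3 (-0.33, adjusted p = 0.107), which left 0 members that fell.

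Of 29 genes of peroxisomal lipid enzymes and biogenesis 16 rose and 1 fell, with a median change of 0.23. With all arrays of 1 replicate number left out, 10 to 11 rose. Pex10, a ubiquitin ligase of peroxisomal protein import, rose by 0.47 ± 0.063 (adjusted p = 2.36e-06). The oxidation enzyme Hsd17b4 rose by 0.47 ± 0.072 (adjusted p = 1.84e-05), and Phyh, which starts the breakdown of phytanic acid, by 0.44 ± 0.061 (adjusted p = 5.43e-06). Abcd2, a transporter of very long fatty acids into peroxisomes, went the other way, with levels of 7.10, 6.56 and 6.94 at 48 h, against 7.90, 7.91 and 7.85 in untreated cells (change -1.02 ± 0.13, adjusted p = 1.06e-06).

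Nuclear genes for other mitochondrial functions differed by list in how many rose, against 12.6% of all genes. Of 34 complex I subunits, the entry point of the respiratory chain, 18 rose and 0 fell (median change 0.192). Without the 48 h replicate 1 the count was 10. Ndufa3 rose by 0.46 ± 0.065 (adjusted p = 6.52e-06) and Ndufb6 by 0.38 ± 0.066 (adjusted p = 0.000114). Of 37 subunits of complexes II to V 6 rose and 0 fell, with a median of 0.091. The share that rose, 16.2%, was near the 12.6% of all genes. Within this list Sdhd of complex II had the largest change (0.37 ± 0.061, adjusted p = 4.55e-05). The complex IV genes and relatives Cox7a1, Cox8b, Cox6a2, Cox7a2l and Cox4i2 were not in this list and are given below. There was 1 lower member without the 48 h replicate 1, and 1 without the untreated replicate 1. Of 74 mitochondrial ribosomal proteins 25 rose and 0 fell (median 0.156), led in size by Mrpl47 (0.67 ± 0.13, adjusted p = 0.000271) and Mrpl55 (0.66 ± 0.092, adjusted p = 5.04e-06).

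Of 17 genes of the tricarboxylic acid cycle 7 rose and 0 fell (41.2% rose, against 12.6% of all genes). With all arrays of 1 replicate number left out, 3 to 4 rose. Idh3a, the catalytic subunit of isocitrate dehydrogenase, had levels of 11.06, 10.96 and 10.91 at 48 h, against 10.22, 10.28 and 10.22 in untreated cells (change 0.73 ± 0.074, adjusted p = 3.92e-08), whereas its partner Idh3b was not called (-0.03 ± 0.048, adjusted p = 0.702). Of 17 regulators of mitochondrial biogenesis 9 rose and 0 fell (median 0.274). Tfam, which packs and transcribes mitochondrial DNA, rose by 0.57 ± 0.077 (adjusted p = 3.89e-06), the fusion protein Opa1 by 0.47 ± 0.067 (adjusted p = 6.7e-06), and the transcription factor Nrf1 by 0.33 ± 0.064 (adjusted p = 0.000401). Of 13 genes at the pyruvate gate 6 rose and 1 fell. This list also holds the glucose transporter Slc2a1, which is among those that rose and is in the hypoxia and glycolysis lists too. The kinases Pdk4 and Pdk2 (0.80 ± 0.074, adjusted p = 9.67e-09), which turn the pyruvate dehydrogenase complex off, rose, and so did Dlat, a core subunit of the complex itself (0.53 ± 0.064, adjusted p = 5.53e-07). The member that fell was another of the kinases, Pdk3 (-0.21 ± 0.066, adjusted p = 0.0211). Its call was lost when the 48 h replicate 1 (-0.16, adjusted p = 0.122), the untreated replicate 1 (-0.20, adjusted p = 0.0609) or the untreated replicate 2 (-0.20, adjusted p = 0.0643) was left out, and 0 members fell then.

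**Figure D3:**
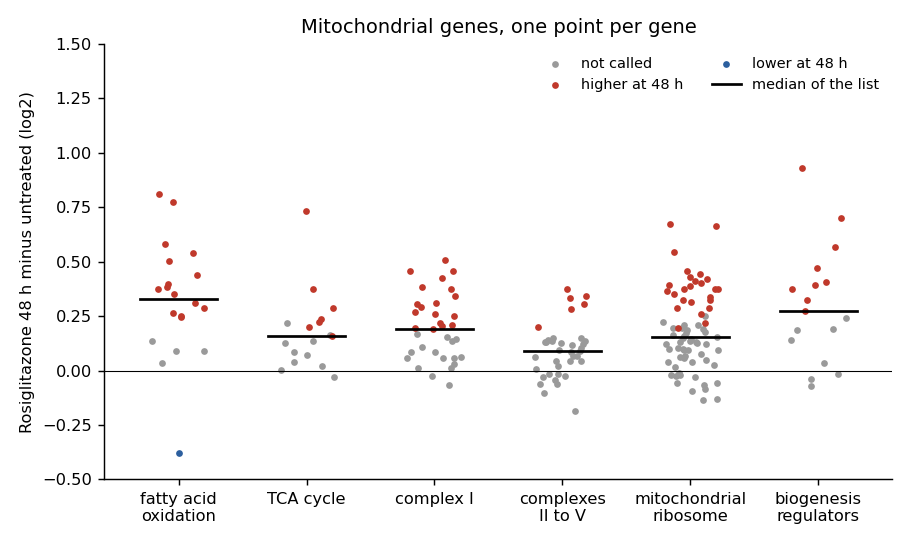
Each point is 1 gene of the list named below it, and the vertical axis is its change, rosiglitazone 48 h minus untreated (log2). Red points rose, blue points fell, grey points were not called, and black bars are list medians, which run from 0.091 for complexes II to V to 0.330 for fatty acid oxidation. The only blue point is Cpt1a. Cox7a1, Cox8b, Cox6a2, Cox7a2l and Cox4i2 are not among the genes drawn for complexes II to V.

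Of 11 cytochrome oxidase (complex IV) subunits and their relatives 4 rose and 1 fell. Several of these subunits exist in a general form and in a form typical of muscle and brown fat. Cox7a1, the muscle and brown fat form, had levels of 10.37, 10.14 and 10.04 at 48 h, against 8.84, 8.83 and 8.67 in untreated cells (change 1.40 ± 0.089, adjusted p = 1.41e-11). Its general counterpart Cox7a2 had levels of 10.08, 9.94 and 9.85 at 48 h, against 9.89, 9.84 and 9.94 in untreated cells, which overlapped (change 0.07 ± 0.072, adjusted p = 0.563). Cox8b had levels of 10.79, 10.48 and 10.64 at 48 h, against 9.68, 9.87 and 9.87 in untreated cells (change 0.83 ± 0.081, adjusted p = 2.35e-08). The general form Cox8a changed by -0.06 ± 0.056 (adjusted p = 0.503). Cox6a2, of heart and skeletal muscle, rose by 0.91 ± 0.13 (adjusted p = 1.31e-05), and its general form Cox6a1, named here after its values were seen, changed by -0.03 ± 0.091 (adjusted p = 0.858). The lung form Cox4i2 was lower at 48 h (-0.57 ± 0.11, adjusted p = 0.000326), with all arrays of both groups near the dim end of the scale. Cox7a2l, a broadly expressed relative of Cox7a2 that joins respiratory complexes, had levels of 8.52, 8.53 and 8.79 at 48 h, against 7.94, 7.94 and 7.80 in untreated cells, so increases were not limited to tissue forms (change 0.72 ± 0.080, adjusted p = 1.75e-07). The differences between partners were not tested.

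Of 23 genes typical of brown and beige fat 12 rose and 1 fell, with a median change of 0.327. Beside Cidea, Elovl3, Cox7a1, Cox8b, Pdk4 and Ppargc1a, Cited1, a transcriptional cofactor described in beige cells, rose by 0.75 ± 0.099 (adjusted p = 2.61e-06), and Ebf2, a selector factor of brown fat, by 0.42 ± 0.093 (adjusted p = 0.00124). Ucp1, the heat-making proton leak of brown fat mitochondria, had levels of 2.87, 2.81 and 2.67 at 48 h, against 2.69, 2.76 and 2.89 in untreated cells. Those values overlap, lie near the bottom of the scale and gave a change of 0.00 (SE 0.0858, adjusted p = 0.988, 95% interval -0.17 to 0.18). Prdm16, a master regulator of brown fat fate, changed by -0.21 ± 0.12 (adjusted p = 0.231). S100b, a calcium-binding protein, was the member that fell (-0.41 ± 0.13, adjusted p = 0.0283). Its call ended without the 48 h replicate 1 (-0.35, adjusted p = 0.105), the 48 h replicate 2 (-0.41, adjusted p = 0.063) or the untreated replicate 1 (-0.29, adjusted p = 0.167), which left 0, and 2 members fell without the 48 h replicate 3. In untreated cells 8 of the 23 genes had mean levels under 3.5, as had 36.8% of all genes.

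Genes known to answer to low oxygen rose, and with them genes of glucose use. Of 20 hypoxia-responsive genes 15 rose and 0 fell, with a median change of 0.315. Car9 had levels of 6.68, 6.91 and 6.76 at 48 h, against 4.85, 5.08 and 4.93 in untreated cells (change 1.83 ± 0.12, 3.56-fold, adjusted p = 2.15e-11). Adm, which encodes the vasodilator adrenomedullin, had levels of 7.11, 7.47 and 7.20 at 48 h, against 6.22, 5.97 and 5.93 in untreated cells (change 1.22 ± 0.17, adjusted p = 5.01e-06). Ndrg1, a stress-responsive gene, rose by 1.01 ± 0.14 (adjusted p = 3.54e-06), Egln1, an oxygen sensor that marks HIF-1α for destruction, by 0.54 ± 0.074 (adjusted p = 4.38e-06), and the MYC antagonist Mxi1 by 0.49 ± 0.072 (adjusted p = 8.87e-06). Hif1a, the oxygen-regulated factor, changed by -0.02 ± 0.082 (adjusted p = 0.886), and the arrays do not measure its protein.

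Of 19 genes of glycolysis and glucose uptake 11 rose and 0 fell, with a median of 0.231. Slc16a1, a carrier of lactate and ketone bodies, had levels of 9.38, 9.57 and 9.43 at 48 h, against 8.12, 8.03 and 8.08 in untreated cells (change 1.38 ± 0.079, adjusted p = 2.48e-12). Pfkfb3, which makes an activator of phosphofructokinase, rose by 1.07 ± 0.10 (adjusted p = 1.87e-08), the platelet phosphofructokinase Pfkp by 0.90 ± 0.092 (adjusted p = 4.94e-08) and the muscle form Pfkm by 0.42 ± 0.057 (adjusted p = 3.4e-06). Slc2a1, the glucose transporter of most cells, rose by 0.36 ± 0.068 (adjusted p = 0.000287), while the insulin-responsive Slc2a4 changed by -0.05 ± 0.067 (adjusted p = 0.657). The hypoxia and glycolysis lists share 5 genes: Slc2a1, Hk2, Pgk1, Ldha and Pfkfb3.

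The letters ACGTG, the core of the element that hypoxia-inducible factors bind, were looked for on both strands of promoter windows from RefSeq (build GRCm38.p6). Windows ran from 250 bases before to 50 after a start, and 18124 were at hand for 14723 of the genes tested. Some genes have several windows, and a gene was counted once if any of its windows held a match. The letters occurred in 15 of the 18 genes of the hypoxia list with a window (83.3%) and 14 of 18 of the glycolysis list (77.8%). Among all genes with a window the count was 3615 of 14723 (24.6%). The lists share members, and some were put there because they are known targets of these factors. The window of Car9, the gene of the list with the largest change, was picked by size of increase among members that rose and had 1 window, with these letters in it. It lies at chr4:43506776-43507075 on the plus strand and is shown with its match in capitals. The match reads CACGT on this strand and starts 18 bases before the gene's start.
Car9: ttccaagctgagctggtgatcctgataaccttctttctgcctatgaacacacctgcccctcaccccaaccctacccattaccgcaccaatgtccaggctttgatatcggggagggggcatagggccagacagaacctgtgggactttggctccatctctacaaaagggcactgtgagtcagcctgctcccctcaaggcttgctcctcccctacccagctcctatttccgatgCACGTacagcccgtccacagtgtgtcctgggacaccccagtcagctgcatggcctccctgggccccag
A match is a description and not a site. The direct repeat with a spacing of 1 base, which PPARγ and its partner bind, was counted on either strand in the same way. It was found in 0 of the 12 genes with a window among the 15 largest increases, and in 8 of 14723 genes (0.0543%). A looser form, with any base at the fourth place of each repeat, was found in 0 of the 12 and 60 of 14723 (0.408%). That says only that these letters are not in these short windows.

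Transcripts of lipid synthesis from glucose were lower in part. Among 22 lipogenic genes 12 fell and 2 rose, with a median change of -0.154. Elovl6, which lengthens palmitate, had levels of 6.58, 6.21 and 6.45 at 48 h, against 7.38, 7.73 and 7.85 in untreated cells (change -1.24 ± 0.12, adjusted p = 2.16e-08). Acly, which makes cytosolic acetyl-CoA from citrate, changed by -0.57 ± 0.056 (adjusted p = 3.21e-08), the acetyl-CoA carboxylase activator Mid1ip1 by -0.57 ± 0.083 (adjusted p = 7.7e-06), the desaturase Fads2 by -0.44 ± 0.060 (adjusted p = 3.4e-06) and the fatty acid synthase Fasn by -0.31 ± 0.052 (adjusted p = 6.21e-05). The members that rose were Acacb, a carboxylase at the mitochondrial surface (0.60 ± 0.081, adjusted p = 3.07e-06), and the desaturase Scd3 (0.69 ± 0.087, adjusted p = 1.28e-06), whose probes may also read other Scd genes. Srebf1, the transcription factor that drives many of these enzymes, changed by -0.41 ± 0.062 (adjusted p = 1.57e-05).

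Many transcripts of cholesterol synthesis were lower too. Of 21 genes 13 fell and 0 rose, with a median of -0.272, and without the 48 h replicate 1 there was 1 that rose. With all arrays of 1 replicate number left out, the number that fell was 6 to 15. Stard4, which moves cholesterol between membranes, had levels of 6.47, 6.35 and 6.07 at 48 h, against 7.15, 7.15 and 7.27 in untreated cells (change -0.89 ± 0.097, adjusted p = 1.32e-07). Mvk, mevalonate kinase, had levels of 7.65, 7.34 and 7.39 at 48 h, against 7.97, 8.34 and 8.20 in untreated cells (change -0.71 ± 0.13, adjusted p = 0.000163). The isomerases Idi1 (-0.67 ± 0.12, adjusted p = 0.000165) and Ebp (-0.60 ± 0.091, adjusted p = 1.83e-05) were lower too. The CCAAT box, which factor NF-Y binds beside SREBP at many sterol genes, was looked for on either strand. It was present in any promoter window of 15 of the 16 genes of this list with a window (93.8%), against 6165 of 14723 genes (41.9%). The window of Mvk (chr5:114444019-114444318, plus strand) is shown. It was picked by size of decrease among members that fell and had 1 window, with a CCAAT box in it. Capitals mark CCAAT, or ATTGG where the box is on the other strand.
Mvk: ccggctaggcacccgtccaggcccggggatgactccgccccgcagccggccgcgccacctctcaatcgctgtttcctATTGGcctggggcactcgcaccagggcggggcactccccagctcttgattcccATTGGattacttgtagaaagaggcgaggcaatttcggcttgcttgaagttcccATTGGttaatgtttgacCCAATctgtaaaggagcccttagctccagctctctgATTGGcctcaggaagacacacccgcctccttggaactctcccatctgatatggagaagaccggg

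Insulin signalling genes moved both ways. Of 21 members 6 rose and 6 fell (28.6% each, against 12.6% and 11.4% of all genes). Without the 48 h replicate 1 or without the untreated replicate 1 the number that rose was 3. Pik3r1, the regulatory subunit of PI 3-kinase, had levels of 9.42, 9.29 and 9.26 at 48 h, against 10.24, 10.13 and 10.18 in untreated cells (change -0.86 ± 0.076, adjusted p = 4.85e-09). Irs1, the receptor's adaptor, changed by -0.51 ± 0.073 (adjusted p = 8.03e-06) and the kinase Akt1 by -0.34 ± 0.067 (adjusted p = 0.000368). Tbc1d4, which holds glucose transporter vesicles back until AKT releases it, rose by 0.43 ± 0.084 (adjusted p = 0.000354).

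Among 22 adipokines and secreted factors 4 rose and 6 fell (18.2% and 27.3%, against 12.6% and 11.4% of all genes). The number that rose was 2 without the 48 h replicate 2, the untreated replicate 2 or the untreated replicate 3. Lep, which encodes the satiety hormone leptin, had levels of 4.23, 3.87 and 3.52 at 48 h, against 6.02, 5.55 and 5.25 in untreated cells (change -1.73 ± 0.24, 3.32-fold lower, adjusted p = 4.37e-06). Agt, the precursor of angiotensin, changed by -0.86 ± 0.072 (adjusted p = 1.95e-09), the growth factor Igf1 by -0.82 ± 0.074 (adjusted p = 6.12e-09) and the lipocalin Lcn2 by -0.82 ± 0.14 (adjusted p = 0.000118). Metrnl, a hormone of muscle and fat, rose by 0.49 ± 0.099 (adjusted p = 0.000521). Ffar4, a receptor for long-chain fatty acids, rose by 0.83 ± 0.090 (adjusted p = 1.27e-07), and Ghr, the growth hormone receptor, changed by -0.58 ± 0.068 (adjusted p = 3.96e-07).

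Proteins of the acute-phase response held several of the largest decreases. Orm2, a plasma glycoprotein of inflammation, had levels of 4.02, 4.35 and 4.66 at 48 h, against 7.15, 6.99 and 6.91 in untreated cells (change -2.67 ± 0.17, 6.37-fold lower, adjusted p = 2.47e-11). Its family members Orm3 (-1.64 ± 0.19, adjusted p = 3.71e-07) and Orm1 (-0.91 ± 0.12, adjusted p = 4e-06) were lower as well, and probes of the family may read each other. Hp, the haemoglobin scavenger haptoglobin, had levels of 8.34, 8.50 and 8.63 at 48 h, against 10.44, 10.49 and 10.44 in untreated cells (change -1.97 ± 0.088, adjusted p = 4.5e-14). Itih4, a plasma protease inhibitor, changed by -1.66 ± 0.12 (adjusted p = 2.33e-10) and Cp, the copper oxidase ceruloplasmin, by -1.06 ± 0.083 (adjusted p = 4.93e-10). Of 17 acute-phase genes 8 fell and 1 rose. The one that rose was Steap4, a metal reductase of fat cells (0.56 ± 0.13, adjusted p = 0.00183). Hpx, which binds free haem and is not in the list, changed by -1.87 ± 0.12 (adjusted p = 2.88e-11).

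Some chemokine and complement genes fell too. Of 33 chemokines, cytokines and adhesion molecules 14 fell and 0 rose, with a median of -0.174, and 1 rose without the 48 h replicate 2 or without the untreated replicate 3. Of the 33, called or not, 14 had an untreated mean under 3.5, as had 36.8% of all genes, which limits what can be seen of a fall. Ccl6, a chemokine of macrophage recruitment, had levels of 3.54, 4.46 and 4.56 at 48 h, against 6.86, 6.71 and 6.69 in untreated cells (change -2.56 ± 0.24, adjusted p = 1.19e-08). The chemokine Cxcl13 changed by -1.72 ± 0.21 (adjusted p = 5.71e-07), Ccl2, which draws monocytes, by -1.15 ± 0.16 (adjusted p = 6.36e-06), the adhesion molecule Vcam1 by -1.12 ± 0.10 (adjusted p = 9.58e-09), Cx3cl1 by -1.09 ± 0.15 (adjusted p = 4.13e-06) and the stromal factor Cxcl12 by -0.92 ± 0.083 (adjusted p = 6.7e-09). Of 16 complement genes 5 fell and 0 rose, though their median of -0.013 changes sign when arrays are centred on their medians. Among these 16, 8 had an untreated mean under 3.5. Cfb, factor B of the alternative pathway, had levels of 5.50, 5.58 and 5.65 at 48 h, against 6.71, 6.74 and 6.61 in untreated cells (change -1.11 ± 0.097, adjusted p = 4.04e-09).

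Markers of immune cells were low in both groups. The mean level of 14 macrophage markers was 3.36 to 3.49 in the 48 h arrays and 3.47 to 3.51 in the untreated arrays, and 10 of the 14 had an untreated mean under 3.5. Of them 2 fell (14.3%, near the 11.4% of all genes) and 0 rose. Lyz2, the lysozyme of macrophages, changed by -0.94 ± 0.17 (adjusted p = 0.000185). Cd14, a lipopolysaccharide receptor, changed by -0.66 ± 0.22 (adjusted p = 0.033) with overlapping arrays, and its call ended without the 48 h replicate 1 (-0.40, adjusted p = 0.237), the 48 h replicate 2 (-0.62, adjusted p = 0.0939), the untreated replicate 1 (-0.53, adjusted p = 0.147) or the untreated replicate 3 (-0.69, adjusted p = 0.0616), which left 1 that fell. The part of these markers in the fall of inflammatory genes was not tested. Endothelial, striated muscle and hepatocyte markers had mean levels of 3.16 to 3.26, 3.79 to 3.91 and 3.19 to 3.34 at 48 h, against 3.21 to 3.31, 3.89 to 3.98 and 3.28 to 3.34 in untreated cells.

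Genes of the extracellular matrix were lower across several classes. Of 33 matricellular proteins and proteoglycans 18 fell and 2 rose (median change -0.240). Lum, a proteoglycan of collagen fibrils, had levels of 6.89, 6.70 and 6.55 at 48 h, against 8.05, 7.82 and 7.76 in untreated cells (change -1.16 ± 0.12, adjusted p = 6.15e-08). The large proteoglycan Vcan changed by -1.15 ± 0.11 (adjusted p = 1.67e-08), Sparcl1, a matricellular protein, by -0.91 ± 0.056 (adjusted p = 8.59e-12), Dcn by -0.75 ± 0.10 (adjusted p = 2.58e-06) and the basement membrane proteoglycan Hspg2 by -0.68 ± 0.079 (adjusted p = 3.4e-07). Thbs2, an inhibitor of vessel growth, rose by 0.45 ± 0.074 (adjusted p = 4.32e-05).

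Of 42 collagen chains 13 fell and 2 rose, and the number that rose was 0 or 1 without any 1 of the 6 arrays: it was 0 when the 48 h replicate 2 was left out, and 1 for the 48 h replicates 1 and 3 and for the untreated replicates 1, 2 and 3. Col18a1, a basement membrane collagen, changed by -0.89 ± 0.10 (adjusted p = 3.71e-07), Col12a1 by -0.78 ± 0.11 (adjusted p = 3.96e-06), Col4a1 by -0.53 ± 0.060 (adjusted p = 2.33e-07) and Col1a2, of the main fibrillar collagen, by -0.43 ± 0.060 (adjusted p = 4.45e-06). Of 19 genes that process and crosslink collagen 10 fell and 2 rose. Pcolce2, which speeds up the trimming of procollagen, had levels of 4.93, 4.50 and 4.98 at 48 h, against 7.07, 6.97 and 6.89 in untreated cells (change -2.17 ± 0.12, adjusted p = 1.96e-12). The crosslinking oxidase Loxl1 changed by -0.96 ± 0.085 (adjusted p = 4.63e-09). P4ha2, a collagen prolyl hydroxylase, rose by 0.58 ± 0.10 (adjusted p = 0.000141).

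Matrix proteases and inhibitors fell in 11 of 21 cases and rose in 1. Mmp23 changed by -1.20 ± 0.13 (adjusted p = 1.23e-07) and the inhibitor Timp2 by -0.90 ± 0.088 (adjusted p = 2.09e-08), while the stromal protease Mmp11 rose by 0.70 ± 0.088 (adjusted p = 1.06e-06). Podn, a small proteoglycan, and Olfml2b, a secreted matrix protein, were among the 15 largest decreases, with changes of -1.81 ± 0.105 and -1.86 ± 0.085 (adjusted p = 2.48e-12 and 5.52e-14).

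The cytoskeleton showed the highest share of lower genes after mitosis among the lists drawn in the plot of gene lists. Of 23 actin and smooth muscle contractile genes 16 fell and 1 rose, with a median of -0.336. Acta2, smooth muscle actin, had levels of 7.89, 7.59 and 7.64 at 48 h, against 10.02, 10.06 and 10.14 in untreated cells (change -2.37 ± 0.12, 5.15-fold lower, adjusted p = 4.66e-13). Flna, the actin crosslinker filamin A, had levels of 7.95, 7.73 and 7.77 at 48 h, against 9.26, 9.43 and 9.40 in untreated cells (change -1.55 ± 0.085, adjusted p = 1.25e-12). The myosin light chain Myl9 changed by -1.57 ± 0.19 (adjusted p = 4.48e-07), calponin Cnn2 by -1.06 ± 0.12 (adjusted p = 3.2e-07) and caldesmon Cald1 by -0.70 ± 0.074 (adjusted p = 7.73e-08). Smtn, smoothelin, rose by 0.38 ± 0.081 (adjusted p = 0.00101).

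Markers of precursor cells moved with the matrix genes. The mean level of 18 preadipocyte and fibroblast markers was 5.59 to 5.62 in the 48 h arrays and 5.89 to 5.91 in the untreated arrays, and 8 fell while 1 rose. S100a4, a fibroblast calcium-binding protein, had levels of 6.28, 6.01 and 6.01 at 48 h, against 7.38, 7.56 and 7.52 in untreated cells (change -1.38 ± 0.11, adjusted p = 1.45e-09). Dlk1, a preadipocyte surface protein that holds back differentiation, changed by -0.73 ± 0.073 (adjusted p = 3.12e-08), Snai2 by -0.76 ± 0.13 (adjusted p = 5.06e-05) and the growth factor receptor Pdgfra by -0.58 ± 0.11 (adjusted p = 0.000419). The helix-loop-helix factor Twist2 rose by 0.82 ± 0.080 (adjusted p = 2.16e-08). The part of a change in precursor cells in the fall of matrix and contractile genes was not tested. Of 26 Wnt genes, which include ligands, receptors and antagonists, 7 fell and 0 rose (26.9% fell, against 11.4% of all genes). Of 23 genes of TGF-beta and BMP signalling 10 fell and 1 rose (43.5% and 4.35%, against 11.4% and 12.6% of all genes). The secreted Wnt modulator Sfrp2 changed by -1.63 ± 0.14 (adjusted p = 2.19e-09), and the differentiation inhibitors Id2 and Id1 by -1.37 ± 0.27 and -0.87 ± 0.076 (adjusted p = 0.000373 and 3.35e-09).

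**Figure D4:**
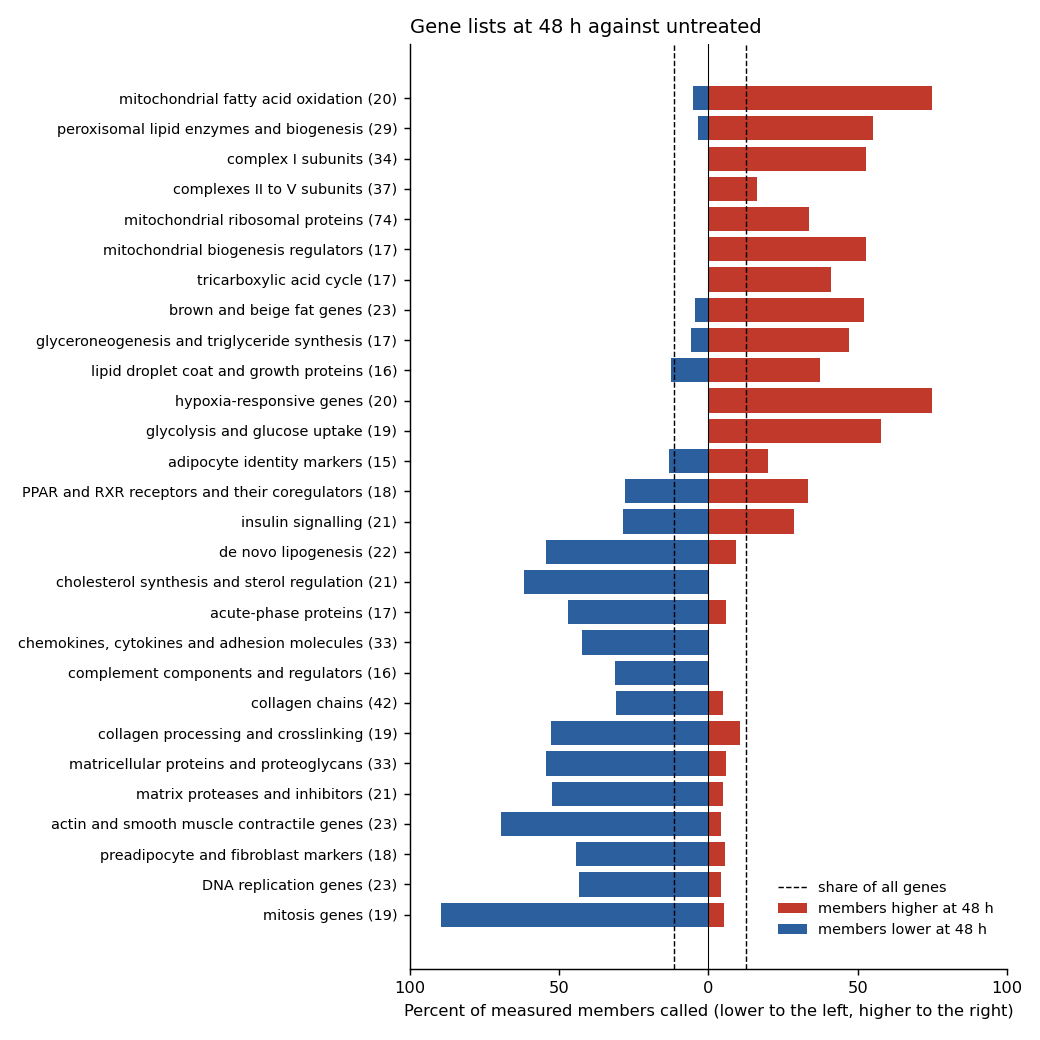
Bars give the percent of the measured members of each gene list (number in brackets) that rose at 48 h against untreated, to the right in red, and that fell, to the left in blue. Dashed lines are the same shares over all genes, 12.6% and 11.4%. Mitosis genes have the longest blue bar (89.5%), and fatty acid oxidation and hypoxia-responsive genes the longest red bars (75%).

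Most mitosis genes were lower at 48 h than in untreated cells. Of 19 mitosis genes 17 fell, 1 rose and 1 was not called, with a median change of -0.807. Mki67, the proliferation marker Ki-67, had levels of 3.95, 3.54 and 3.83 at 48 h, against 5.72, 5.78 and 5.78 in untreated cells (change -1.98 ± 0.14, 3.96-fold lower, adjusted p = 9.75e-11). Ccna2, the cyclin of S phase and mitosis entry, had levels of 4.99, 4.97 and 5.14 at 48 h, against 7.06, 7.02 and 7.05 in untreated cells (change -2.01 ± 0.12, adjusted p = 6.81e-12). Top2a, which untangles chromosomes, changed by -1.68 ± 0.13 (adjusted p = 6.8e-10), the mitotic cyclin Ccnb2 by -1.46 ± 0.13 (adjusted p = 2.99e-09), the checkpoint kinase Bub1 by -1.42 ± 0.14 (adjusted p = 3.4e-08) and the spindle motor Kif11 by -1.23 ± 0.11 (adjusted p = 6.9e-09). Ndc80, of the outer kinetochore and named here after its values were seen, was low in both groups (-0.10, adjusted p = 0.644). Cenpa, the histone variant of the centromere, rose by 0.35 ± 0.095 (adjusted p = 0.00819), and its call ended without the untreated replicate 2 (0.29, adjusted p = 0.0547), which left 0 that rose.

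The mean level of the 19 mitosis genes was 5.55 to 5.61 in untreated arrays, 5.22 to 5.41 at 24 h, 4.73 to 4.97 at 36 h and 4.56 to 4.70 at 48 h, and no array of 1 of these groups overlapped with those of another. Mki67 averaged 5.76 ± 0.035 in untreated cells, 5.35 ± 0.11 at 24 h, 4.38 ± 0.24 at 36 h and 3.78 ± 0.21 at 48 h (SD, n = 3 each). Ccna2 averaged 7.04 ± 0.024 in untreated cells, 6.59 ± 0.17 at 24 h, 5.51 ± 0.33 at 36 h and 5.03 ± 0.091 at 48 h (SD, n = 3 each). Most of the fall in both genes thus came after the first day. Against 24 h, 274 genes were called at 48 h (1.46%), 134 higher (0.713%) and 140 lower (0.745%). With arrays centred on their medians 85 were higher and 167 lower, so that the share higher was 33.7%, against 48.9% as deposited. Of the 19 mitosis genes 14 were lower. That count was 9 without the 24 h replicate 1. Against 36 h, 0 of the 19 were called at 48 h (median difference -0.113). Of 23 DNA replication genes 2 were lower at 48 h than at 24 h (median difference -0.064) and 0 were called against 36 h. The difference, 48 h minus 24 h, was -1.57 ± 0.14 for Mki67 (adjusted p = 3.54e-07), -1.55 ± 0.12 for Ccna2 (adjusted p = 4.57e-08), -1.33 ± 0.13 for Ccnb2 (adjusted p = 6.31e-07) and for Top2a -1.12 ± 0.13 (adjusted p = 2.52e-05). At 48 h against untreated, 10 of the 23 replication genes fell and 1 rose, and 0 rose without the 48 h replicate 1 or 2 or without the untreated replicate 1 or 2. Mcm5, a subunit of the replicative helicase, changed by -1.09 ± 0.11 (adjusted p = 2.44e-08) and Rrm2, which makes DNA building blocks, by -1.09 ± 0.12 (adjusted p = 2.48e-07).

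**Figure D5:**
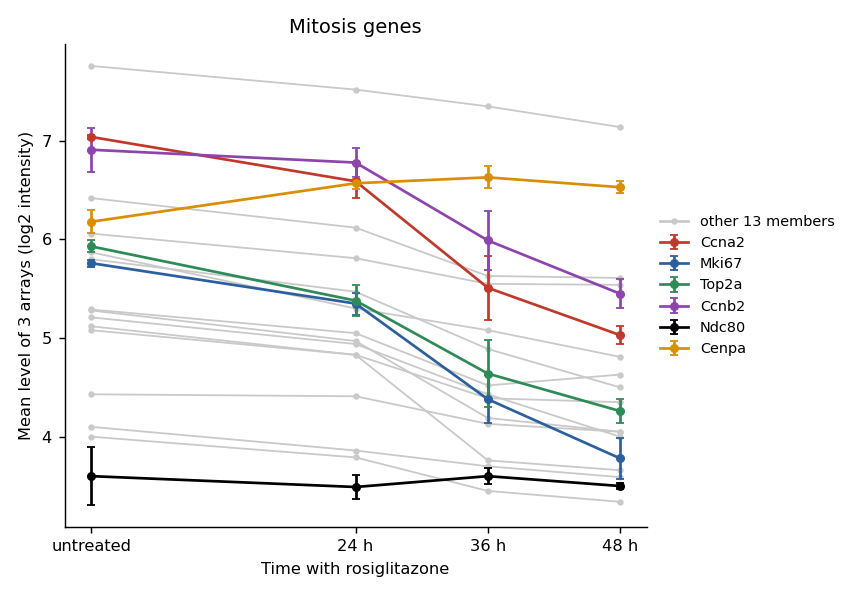
Mean level (log2 intensity) of each of the 19 mitosis genes against time with rosiglitazone, untreated cells at the left. Coloured lines are 6 named genes with bars of 1 SD over 3 arrays, and grey lines the other 13. Ccna2, Mki67, Top2a and Ccnb2 fall most steeply after 24 h, while Cenpa lies higher at 24 h, 36 h and 48 h than in untreated cells and Ndc80 stays near 3.5.

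Promoters of mitosis genes are known for a pair of elements: CCAAT boxes, and a cell cycle homology region with the letters TTTGAA, at which the DREAM complex and the activator MYBL2 with FOXM1 act in turn. On either strand of any of its promoter windows, TTTGAA was present for 13 of the 16 genes of the list with a window (81.2%), against 2540 of 14723 genes (17.3%). CCAAT was present for 14 of 16 (87.5%), against 41.9% of all genes with a window. Ccna2, the member with the largest decrease, was not among the genes with a match to either element. Windows were picked by size of decrease among members that fell and had 1 window, with both elements in it. Those of 3 genes are shown, with both elements in capitals. A CCAAT box lying on the other strand appears there as ATTGG. A homology region lying on the other strand appears as TTCAAA. None of these matches overlap. They lie at chr7:135716330-135716629 for Mki67, chr11:99024140-99024439 for Top2a and chr9:70421505-70421804 for Ccnb2 in GRCm38.p6, all on the minus strand, and read 5′ to 3′ along the gene.
Mki67: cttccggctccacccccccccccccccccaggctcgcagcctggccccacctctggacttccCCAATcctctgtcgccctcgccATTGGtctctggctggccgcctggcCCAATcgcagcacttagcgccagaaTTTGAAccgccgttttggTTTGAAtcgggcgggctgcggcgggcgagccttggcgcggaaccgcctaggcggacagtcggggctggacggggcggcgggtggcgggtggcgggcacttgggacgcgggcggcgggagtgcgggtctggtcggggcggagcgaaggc
Top2a: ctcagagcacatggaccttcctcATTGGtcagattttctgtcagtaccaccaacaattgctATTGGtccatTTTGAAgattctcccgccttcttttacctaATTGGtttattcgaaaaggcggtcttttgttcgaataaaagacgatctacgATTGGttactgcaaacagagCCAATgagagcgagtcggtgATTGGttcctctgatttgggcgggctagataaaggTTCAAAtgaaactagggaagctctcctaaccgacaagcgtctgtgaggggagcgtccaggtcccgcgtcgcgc
Ccnb2: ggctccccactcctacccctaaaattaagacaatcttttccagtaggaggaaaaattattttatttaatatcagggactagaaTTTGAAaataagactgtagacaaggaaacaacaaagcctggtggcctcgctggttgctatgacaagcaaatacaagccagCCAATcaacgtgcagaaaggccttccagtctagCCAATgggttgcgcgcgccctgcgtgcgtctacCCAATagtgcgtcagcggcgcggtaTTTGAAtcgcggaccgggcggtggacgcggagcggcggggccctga
Cenpa, the member that rose, and Ndc80, which was not called, also hold TTTGAA in their windows. The matches describe the windows, and binding was not measured.

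Against 36 h, 3 genes were called at 48 h (0.0160%), 2 higher (0.0106%) and 1 lower (0.00532%), while 1802 had an unadjusted p below 0.05 and 252 were called when arrays were weighted by quality. They were the phosphatase Dusp8 (0.76 ± 0.13, adjusted p = 0.0215), the T-box factor Tbx2 (0.36 ± 0.060, adjusted p = 0.0215) and the clock factor Npas2 (-0.73 ± 0.11, adjusted p = 0.00836). Leaving out the 48 h replicate 2 ended all 3 calls (adjusted p = 0.052, 0.0877 and 0.052), and so did leaving out the 36 h replicate 1 (adjusted p = 0.117, 0.073 and 0.073). Those of Dusp8 and Tbx2 were also lost when the 48 h replicate 1 (adjusted p = 0.0768 and 0.0751) or the 36 h replicate 3 (adjusted p = 0.17 for both) was left out. With the 48 h replicate 2 or 3 left out, the count of genes called was 1 or 6, and with the 36 h replicate 1 or 2 left out it was 0 or 14, in that order. Between 24 h and 48 h, where 2774 genes had an unadjusted p below 0.05, the count of 274 was 106 without the 48 h replicate 3, and 87, 132 and 154 without the 24 h replicates 1, 2 and 3. Cidea was higher at 48 h than at 24 h by 1.35 ± 0.12 (adjusted p = 4.13e-07), with means of 6.21 ± 0.15 at 24 h, 7.00 ± 0.078 at 36 h and 7.56 ± 0.14 at 48 h (SD, n = 3 each). Aqp8, a water and hydrogen peroxide channel, was higher by 1.18 ± 0.11 (adjusted p = 6.89e-07). The comparisons share the 48 h arrays.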

How the data were processed

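RNA of 27 Affymetrix Mouse Gene 1.1 ST arrays (9 groups of 3) was analysed from the log2 intensities per probe set that the authors deposited. The submitters' processing notes name Partek and RMA. Their versions, roles and parameters are not given in the sources used here, nor is a genome build. Of 28815 probe sets, 21153 had 1 gene symbol, 1867 had several and 5795 had none. Probe sets with 1 symbol were kept, and the brightest of each gene gave 18781 genes. Groups came from the sample labels.

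A group-means model of all 27 arrays was fitted with limma 3.58.1 (lmFit and eBayes) in R 4.3.3, so that all groups share 1 estimate of the spread. Tests were two-sided, p-values were adjusted by Benjamini-Hochberg over all genes, and a gene was called where its adjusted p was below 0.05. Every adjusted p in the text is of this kind. No pair of arrays held identical values. On simulated data with the same groups and arrays, 86% of changes of 0.5 and 98% of changes of 1 (log2) were called, with 7 false and 184 true calls. The simulation changed far fewer genes than were called in the data and drew noise independently for each array. Its shares therefore need not hold for the real comparison. Python 3.11.15 was used for summaries.

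The comparison, its 54 gene lists and its tests were chosen with earlier results of these data known. Named genes are the 15 largest called increases and decreases with arrays that do not overlap, up to 6 called members of each list with the smallest p and its extremes, a panel of 33 genes, and up to 5 genes per direction in the later comparisons. Alternatives varied the arrays, scaling, variance model, probe sets, baseline and replicate block.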

Additional observations from a re-analysis of the deposited data

How the results depend on the processing

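For 48 h against untreated, 4515 genes were called (2372 higher and 2143 lower). Requiring a change above 1.5-fold in the test left 197 (65 higher, 132 lower). Without single arrays or all arrays of 1 replicate number, the count was 2672 to 3959, with 1314 to 2137 higher and 1358 to 1905 lower. Under the other settings tried it was 3761 to 4999, including 4976 with the 30 min arrays as the baseline. For 48 h against 36 h, 3 genes were called: 1 with the replicate block, 0 with only the arrays compared, 1 after a further quantile normalization, 252 with array weights, 0 with the 1.5-fold minimum and 0 to 14 without arrays. For 48 h against 24 h, 274 were called: 156 with the replicate block, 28 with only the arrays compared, 551 with array weights, 5 with the 1.5-fold minimum and 40 to 314 without arrays. The causes were not tested. The labels do not say what a replicate number shares. Deviations from group means of untreated and 48 h arrays with the same number correlated at -0.232 to -0.178, and those with different numbers at -0.019 to 0.227. Over all groups the ranges were -0.445 to 0.142 and -0.369 to 0.356, in that order. Deviations within a group of 3 arrays are tied to each other, so these values cannot settle whether the numbers pair the samples. With the replicate block 3961 genes were called at 48 h against untreated. None of the 358 named genes changed direction while called, and the direction of the other genes was not compared across settings. Dim probe sets limit what can be seen, since 36.8% of genes had an untreated mean under 3.5.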

Other observations

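Other gene groups held members that changed at 48 h. Of 48 mitochondrial carriers 14 rose and 6 fell (29.2% and 12.5%, against 12.6% and 11.4% of all genes), so the share that fell was near that of all genes. Slc25a34, a carrier of the inner membrane, had levels of 8.33, 8.15 and 7.99 at 48 h, against 6.98, 7.32 and 7.33 in untreated cells (change 0.94 ± 0.11, adjusted p = 2.46e-07), and Slc25a26, which brings the methyl donor S-adenosylmethionine into mitochondria, rose by 0.59 ± 0.066 (adjusted p = 2.04e-07). Slc25a45 went the other way (-0.84 ± 0.11, adjusted p = 1.72e-06). Of 14 carbonic anhydrases 3 rose and 2 fell (21.4% and 14.3%, against 12.6% and 11.4% of all genes), and 1 fell without the 48 h replicate 2 or without the untreated replicate 1 or 2. Car6 rose by 1.96 ± 0.20 (adjusted p = 3.96e-08), while Car3, an abundant enzyme of fat cells, had levels of 9.20, 8.74 and 8.86 at 48 h, against 9.68, 9.96 and 9.78 in untreated cells (change -0.87 ± 0.10, adjusted p = 3.26e-07). Among the channels of water and glycerol, Aqp8 had levels of 5.78, 5.71 and 6.17 at 48 h, against 4.27, 4.31 and 4.31 in untreated cells (change 1.59 ± 0.11, adjusted p = 1.28e-10), and Aqp1, Aqp5 and Aqp2 were lower, with changes of -0.88, -0.79 and -0.77.

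Detoxifying enzymes did not move as a block. Of 31 antioxidant genes 7 rose and 8 fell (22.6% and 25.8%, against 12.6% and 11.4% of all genes), and 4 rose without the untreated replicate 2. Nqo1, a quinone reductase, had levels of 5.70, 5.91 and 5.81 at 48 h, against 7.35, 7.24 and 7.38 in untreated cells (change -1.52 ± 0.11, adjusted p = 1.7e-10). Gclc, which starts glutathione synthesis, rose by 0.55 ± 0.087 (adjusted p = 3e-05) and Hmox1, which breaks down haem, by 0.53 ± 0.088 (adjusted p = 5.1e-05). Of 23 lysosomal genes 7 fell and 2 rose (30.4% and 8.7%, against 11.4% and 12.6% of all genes). The number that rose was 1 without the 48 h replicate 2 or 3 or without the untreated replicate 1 or 2. Lipa, the lysosomal lipase, had levels of 10.79, 10.87 and 10.71 at 48 h, against 9.86, 9.69 and 9.79 in untreated cells (change 1.01 ± 0.080, adjusted p = 7.86e-10), whereas the collagen-cutting protease Ctsk was lower (-0.83 ± 0.12, adjusted p = 8.07e-06). Errfi1, which damps EGF signalling, was lower, with a change of -1.37 ± 0.095 (adjusted p = 6.37e-11). Of 10 genes in common use as references for normalization 5 fell and 2 rose, among them Actb (-0.34 ± 0.050, adjusted p = 1.14e-05), Tubb5 (-0.38 ± 0.076, adjusted p = 0.000417) and Hprt (0.39 ± 0.077, adjusted p = 0.000458).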
